A study of Caenorhabditis elegans with 14 samples.

Results

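The transcripts described here are small nucleolar RNAs (snoRNAs) of the nematode Caenorhabditis elegans that gave short reads in small RNA libraries. They were chosen from the rows of class snoRNA in both count tables by a summed count of at least 1 over the libraries. That rule kept 204 of 342 snoRNA rows, out of 16641 listed transcripts, and since counts chose the members, having reads is not itself a result. Of the members, 17 lie at the edge of the rule with a summed count of 1, and the 138 rows outside it have 0 counts in both libraries. A row with 0 counts allows up to 3 counts, which is 0.144 RPM (read counts scaled to the library total) in the snpc-4 RNAi library and 0.147 RPM in the control RNAi library.

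Both groups are whole young adults of the wild-type strain N2, fed bacteria that made double-stranded RNA against snpc-4 or, as control RNAi, carried only the L4440 vector. SNPC-4 belongs to the SNAP complex, a factor needed to transcribe small nuclear RNA genes and others with the same promoter element. The series asks how its depletion changes small RNAs, mainly piRNAs. Each group has 1 library, so values compare a pair of libraries, have no replicate check and carry no test. Whole animals hold all tissues, so fewer cells of a type and less RNA per cell cannot be told apart. The level of snpc-4 itself was not analysed here.

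snoRNAs work in the nucleolus as guides of RNA modification. Those of the box C/D kind direct ribose methylation and those of the box H/ACA kind direct pseudouridylation of ribosomal and small nuclear RNAs, and box C/D snoRNAs are in general the shorter kind. Many worm snoRNAs lie in introns of other genes and are released from the spliced intron. Others have promoters of their own. The libraries were made from inserts of 22 to 30 nucleotides per the labels' protocols, which is shorter than any snoRNA listed, so each read is a fragment and a count measures fragments rather than the level of the intact snoRNA. The tables name no box type, so these kinds were not told apart here.

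The snoRNAs hold a small part of each library. They sum to 13709 counts (657 RPM) in the snpc-4 library and 14736 counts (722 RPM) in the control library. These are 1.28% and 1.54% of the counts of all listed transcripts, which total 1074622 in the snpc-4 library and 956653 in the control library. RPM rest on larger totals, 20875010 reads for the snpc-4 library and 20413480 for control, so 1 read is worth 0.0479 RPM in the snpc-4 library and 0.0490 RPM in the control library.

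A few snoRNAs gave most of the fragments. The 10 most abundant held 65.9% (65.1% to 66.7%) of the snoRNA counts in the snpc-4 library and 67.2% (66.4% to 68.0%) in the control library. These are exact Clopper-Pearson intervals at 95%. Like every interval given here they reflect the counting of reads alone, and since no molecular identifiers set PCR copies apart they may understate even that error. The 3 leading members alone held 43.8% in the snpc-4 library and 44.2% in the control library. In each library 5 members were needed to reach 50% of the counts, and 40 in the snpc-4 library and 39 in the control library to reach 90%.

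**Figure D1:**
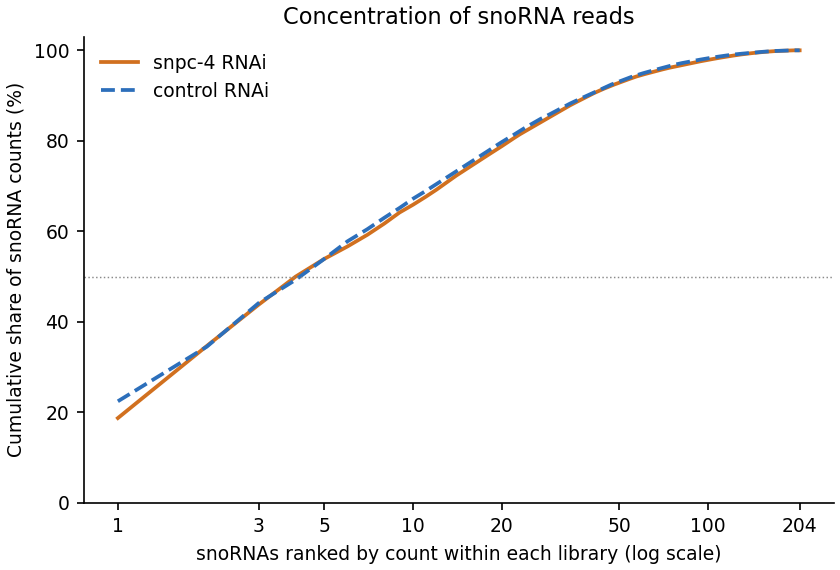
Cumulative share of snoRNA counts (vertical axis, percent) against the rank of the snoRNA within each library (horizontal axis, log scale), for the snpc-4 RNAi library (solid) and the control RNAi library (dashed). Both curves pass 50% at the fifth member; the largest gap between them is at the most abundant member, with 18.7% in the snpc-4 library and 22.4% in the control library.

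The members outside this group are sparse. Summed over both libraries, 6 members had 1000 counts or more, 33 had from 100 to under 1000, 45 from 20 to under 100, 37 from 10 to under 20, 66 from 2 to under 10 and 17 had 1. The median member had 7 counts in each library, against a mean of 67.2 in the snpc-4 library and 72.2 in the control library. The inverse Simpson index, the number of equally abundant members that would give the same concentration, was 12.5 in the snpc-4 library and 11.7 in the control library. By the same index microRNAs were more concentrated, with 5.87 in the snpc-4 library and 6.25 in the control library. tRNAs were less concentrated, with 37.2 in the snpc-4 library and 47.0 in the control library. So were small nuclear RNAs (23.1 and 26.4 in the same order) and piRNAs (50.5 and 42.2). The index counts listed rows, and how reads that match several rows were counted is unknown, which limits this comparison of classes.

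The leading members were nearly the same in both libraries. Of the 10 highest members in each library, 9 were shared. Y53F4B.47 was among the 10 highest in the snpc-4 library alone and M163.14 in the control library alone. Reads in both libraries were found for 176 members. The 15 seen in the snpc-4 library alone had at most 4 counts and the 13 seen in the control library alone at most 5. None of these was far above the limit of 3 counts taken for a 0.

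The leading snoRNA was F47G4.9, with 2568 counts in the snpc-4 library and 3307 in the control library. ZK265.10 followed with 2183 counts in the snpc-4 library and 1777 in the control library, and T06C12.16 with 1254 in the snpc-4 library and 1423 in the control library. F47G4.9 and ZK265.10 lie on chromosome I and T06C12.16 on chromosome V. C46C2.8, on chromosome IV, had 848 counts in the snpc-4 library and 756 in the control library. In the RefSeq gene table of assembly WBcel235, which matched all 342 rows and gives no strand, none of these 4 genes lies inside a protein-coding gene. All 4 are short, with gene lengths of 72, 62, 72 and 73 nt in the order named.

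The next members include several inside protein-coding genes. R166.7, inside mnk-1, a kinase gene of the MAP kinase-interacting family, had 536 counts in the snpc-4 library and 575 in the control library. C07H6.10, inside cgh-1, which encodes a DEAD-box RNA helicase of germ granules, had 380 counts in the snpc-4 library and 680 in the control library. C14C10.8, inside ril-2, had 351 counts in the snpc-4 library and 393 in the control library. Of these 3, C07H6.10 showed the widest gap between the libraries. F01D5.12, inside F01D5.10, had 332 counts in the snpc-4 library and 375 in the control library. Y75B12B.12 and Y53F4B.47, which lie outside protein-coding genes, had 344 and 236 counts in the snpc-4 library, against 317 and 233 in the control library. For a snoRNA inside another gene, fragments of the snoRNA and of the surrounding transcript cannot be told apart in these tables.

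**Figure D2:**
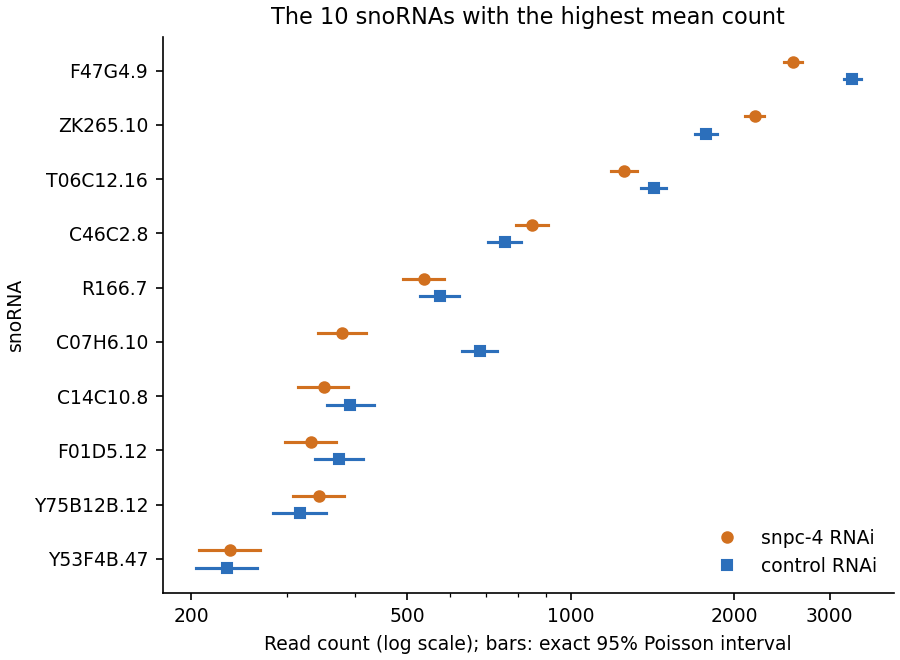
Read counts (horizontal axis, log scale) of the 10 snoRNAs with the highest mean count, with the snpc-4 RNAi library (circles) above the control RNAi library (squares) and bars for exact 95% Poisson intervals. F47G4.9 has 2568 counts in the snpc-4 library and 3307 in the control library; the bars of ZK265.10, T06C12.16 and C07H6.10 are likewise apart, while those of Y53F4B.47, with 236 and 233 counts, overlap.

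Levels per length gave nearly the same leaders. Per 100 nt of gene, F47G4.9 had 171 RPM in the snpc-4 library and 225 RPM in the control library. ZK265.10 had 169 RPM per 100 nt in the snpc-4 library and 140 in the control library, so the order of the first 2 members by this measure is close in the snpc-4 library. T06C12.16 had 83.4 RPM per 100 nt in the snpc-4 library and 96.8 in the control library. Of the 10 members with the highest mean count, 8 were also among the 10 highest per 100 nt. The others there were M163.14 and Y39G10AR.24, of 64 and 65 nt, in place of C14C10.8 and Y75B12B.12, of 131 and 118 nt.

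Short snoRNA genes gave most of the reads, through their 4 leading members. The 64 members under 100 nt, a length chosen after their values were seen, held 70.2% of the snoRNA counts in the snpc-4 library and 71.2% in the control library. The 140 longer members held 29.8% in the snpc-4 library and 28.8% in the control library. Without F47G4.9, ZK265.10, T06C12.16 and C46C2.8, a comparison chosen after seeing the data, members under 100 nt held 40.4% of the remaining counts in the snpc-4 library and 43.2% in the control library, less than the longer ones. The largest share lies below 80 nt, where 48 of 53 listed rows had reads and together held 65.2% of the counts in the snpc-4 library and 66.2% in the control library. Rows of 80 to under 100 nt had reads in 16 of 40 cases and held 5.02% of the counts in each library. A smaller group of longer snoRNAs, of 120 to under 150 nt, held 15.5% in the snpc-4 library and 15.2% in the control library over 70 members, with R166.7 and C14C10.8 at its head. Among the 10 most abundant members, 7 are under 100 nt.

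**Figure D3:**
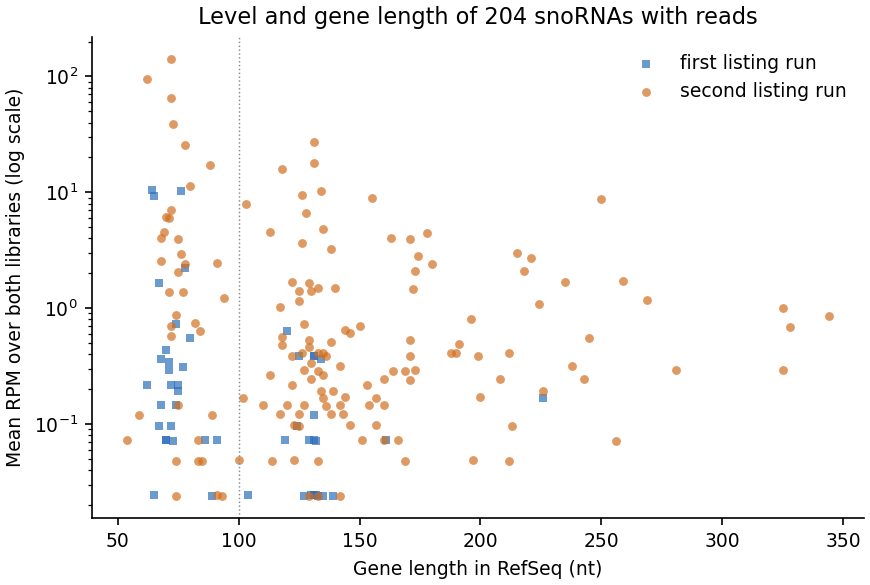
Mean RPM over both libraries (vertical axis, log scale) against RefSeq gene length (horizontal axis, nt) for the 204 snoRNAs with reads, with squares for the first and circles for the second run of listing and a dotted line at 100 nt. The highest points lie under 80 nt, and members of 120 to under 150 nt form a second, lower group that reaches R166.7, with 25.7 RPM in the snpc-4 library and 28.2 RPM in the control library.

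Whether a snoRNA row has reads followed its place in the tables, except among the shortest rows. On each chromosome the snoRNAs are listed in 2 runs of ascending position. In the first run 49 of 182 rows had reads, and in the second run 155 of 160. The first run held 822 snoRNA counts in the snpc-4 library and 902 in the control library. The gap was seen in both length groups. Rows of 100 nt or longer had reads in 22 of 127 cases in the first run and 118 of 122 in the second. Rows under 100 nt had reads in 27 of 55 cases in the first run and 37 of 38 in the second. Below 80 nt, however, 48 of 53 rows of both runs together had reads, so few there lacked them in either run. From 80 to under 100 nt it was 16 of 40 rows. In the first run, 13 of 20 rows whose gene overlaps another annotated RNA gene had reads, against 36 of 162 rows without such an overlap. In the second run it was 24 of 24 against 131 of 136. Length was not held fixed in this comparison, and the part of the overlap was not tested. The 10 most abundant members are all in the second run; the leading members of the first are C51F7.3, inside frm-7, with 232 counts in the snpc-4 library and 196 in the control library, M163.14 and Y39G10AR.24. Having no count in these tables is therefore not taken as absence of the snoRNA, and the part of the authors' counting in this pattern was not tested.

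The class as a whole was slightly lower in the snpc-4 library as scaled by the deposited totals, and higher when scaled by the median ratio of all listed transcripts. The ratio of its summed RPM, snpc-4 over control, was 0.910 (exact interval 0.889 to 0.931), or -0.14 on the log2 scale, against 0.29 with the median ratio, to which piRNAs contribute 560 of 1109 transcripts. With the median ratio of the 549 others it was -0.12. Without F47G4.9 the ratio was 0.953 (0.929 to 0.979). Other RNAs moved between the libraries at the same time: piRNAs, made in the germline, summed to 1537 RPM in the snpc-4 library and 3176 RPM in the control library. The oocyte and embryo microRNAs of the mir-35 family had few reads, 16 counts in the snpc-4 library and 54 in the control library. These are 0.766 RPM and 2.65 RPM in the same order. Of its 8 members 7 were detected, and 1 averaged at least 10 counts. The muscle microRNA mir-1 had 11025 RPM in the snpc-4 library and 8427 RPM in the control library. Rows of class small nuclear RNA summed to 412 RPM in the snpc-4 library and 252 RPM in the control library, a ratio of 1.64 (1.58 to 1.70). Of the 56 such rows that averaged at least 10 counts, 31 were lower and 25 higher. At least 2-fold lower were 0 of them and at least 2-fold higher 14. The part of these differences in the snoRNA values was not tested.

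Single snoRNAs differed in both directions around this small shift. The log2 ratio was computed with 1 read added to each count, for the 84 members that averaged at least 10 counts; the other 120 members together hold 445 counts in the snpc-4 library and 402 in the control library. Its median was -0.13, with quartiles of -0.53 and 0.24 and extremes of -2.03 and 1.16. The median over all 1109 listed transcripts above the same minimum was -0.43, and over the 549 that are not piRNAs -0.014. Both of these sets include the 84 members. Lower values were found for 49 members and higher values for 35, or 58.3% and 41.7%. Over all listed transcripts 70.3% were lower and 29.7% higher, and over those other than piRNAs 50.6% and 49.4%. The split of the members was 26 lower and 58 higher when scaled by the median ratio of all listed transcripts, and 61 lower and 23 higher when scaled to the microRNA total. At the edge of the minimum, W06A7.12 is just inside, with 11 counts in the snpc-4 library and 9 in the control library. So is W10C8.17, with 5 and 15 in the same order and a log2 ratio of -1.45. F32B4.12 is just outside, with 9 in the snpc-4 library and 10 in the control library.

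Of the 84 members, 7 were at least 2-fold lower, or 8.33%, against 29.4% of all listed transcripts and 2.55% of those other than piRNAs. There were 4 at least 2-fold higher, or 4.76%, against 2.61% of all listed transcripts and 4.37% of those other than piRNAs. Among transcripts other than piRNAs, the members themselves give 7 of the 14 lower and 4 of the 24 higher. Small nuclear RNA rows give 14 of those 24. The lower and higher counts of members were 11 and 1 with the listed counts as the scale. By the median ratio they were 5 and 8, and to the microRNA total 12 and 0. With 5 reads added in place of 1 read, 7 were lower and 0 higher. Members with few reads set most of these counts: with a minimum mean of 50 counts, 1 of 39 members was at least 2-fold lower, M163.14, and 0 were higher.

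Ratios were spread more widely than their counting error. For the 84 members the standard deviation of the log2 ratio was 0.66, and the counting error computed from their counts was 0.38 (root mean square). For the 13 members with a mean of 200 counts or more the values were 0.43 and 0.10. For the 26 with a mean of 50 to under 200 they were 0.40 and 0.22, and for the 22 with a mean of 10 to under 20 they were 0.82 and 0.57. Differences between animals, libraries and treatments cannot be told apart in this extra spread. The exact interval of the ratio lay below 1 for 17 members and above 1 for 9, and included 1 for 58. Over all listed transcripts it lay below 1 for 36.4% and above 1 for 8.12%, and over those other than piRNAs for 13.8% and 14.9%.

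**Figure D4:**
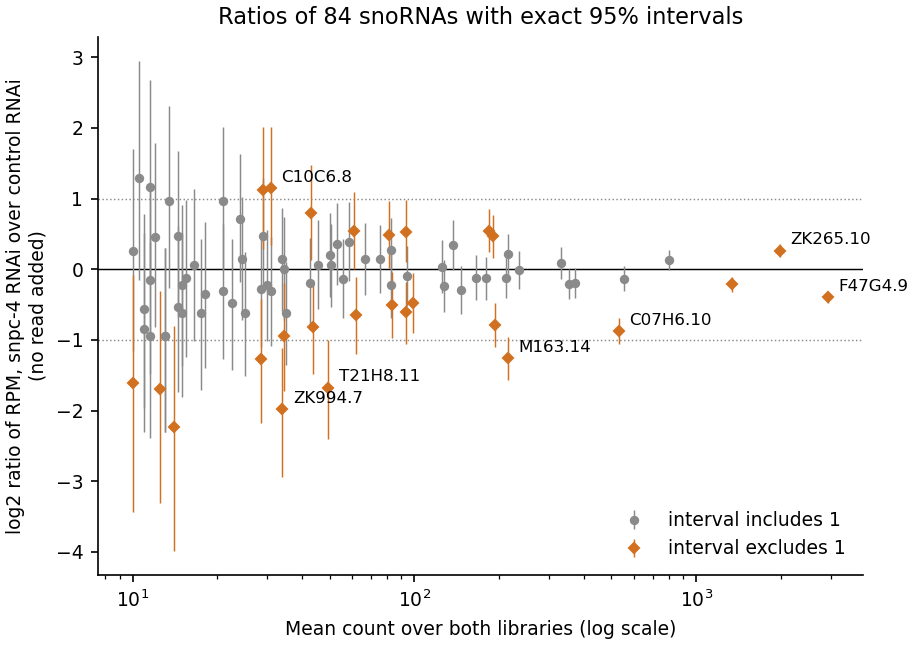
log2 ratio of RPM, snpc-4 RNAi over control RNAi with no read added (vertical axis), against mean count (horizontal axis, log scale) for 84 snoRNAs, with exact 95% intervals and dotted lines at a 2-fold difference. Intervals that exclude 1 (diamonds, 26 members) occur over the whole range of counts; among the best counted are F47G4.9, ZK265.10, C07H6.10 and M163.14.

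Among members that averaged at least 20 counts, the lowest ratios were those of ZK994.7, T21H8.11, M163.14, K08E3.11, ZC395.12 and C07H6.10. ZK994.7, inside pxn-1, which encodes a peroxidasin of the extracellular matrix, had 14 counts in the snpc-4 library and 54 in the control library, a log2 ratio of -1.91. T21H8.11 had 24 counts in the snpc-4 library and 75 in the control library, a log2 ratio of -1.64. M163.14 had 129 counts in the snpc-4 library and 301 in the control library, a ratio of 0.419 (0.338 to 0.517). M163.14 is the best counted member past 2-fold. M163.14 and ZK994.7 are in the first listing run. There 2 of the 8 members above the minimum were at least 2-fold lower, against 5 of 76 in the second run. K08E3.11, inside cyk-4, a gene needed for cytokinesis, had 17 counts in the snpc-4 library and 40 in the control library. ZC395.12 had 24 counts in the snpc-4 library and 45 in the control library. C07H6.10, the snoRNA inside cgh-1, had a ratio of 0.546 (0.481 to 0.620). These members were picked for their low ratios, so the ratios describe them and support nothing further.

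Among the same members that averaged at least 20 counts, the highest ratios were those of C10C6.8, Y38E10A.32, K10D3.10, F59C6.15, ZK546.18 and F46F11.12. C10C6.8, inside catp-8, which encodes a P-type ATPase, had 43 counts in the snpc-4 library and 19 in the control library, a ratio of 2.21 (1.26 to 4.02). Y38E10A.32 had 40 counts in the snpc-4 library and 18 in the control library, a ratio of 2.17 (1.22 to 4.03). These 2 are the members at least 2-fold higher that have a mean of at least 20 counts. K10D3.10, inside K10D3.4 and hpo-11, had 28 counts in the snpc-4 library and 14 in the control library. F59C6.15 had 55 counts in the snpc-4 library and 31 in the control library. ZK546.18, inside mdt-4, which encodes a Mediator subunit, had 30 counts in the snpc-4 library and 18 in the control library. The intervals of K10D3.10 and ZK546.18 included 1. F46F11.12, inside trpp-8, which encodes a subunit of the TRAPP vesicle tethering complex, had 221 counts in the snpc-4 library and 148 in the control library, a ratio of 1.46 (1.18 to 1.81).

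The other members past 2-fold have means under 20 counts. The lower ones are Y73B3A.30, with 5 counts in the snpc-4 library and 23 in the control library, Y62F5A.11, inside mdt-8, with 6 and 19 in the same order, and W10C8.17, inside pop-1, with 5 and 15. The higher ones are C15F1.15, with 16 counts in the snpc-4 library and 7 in the control library, and Y43F8C.22, with 15 and 6. These 5 were named after their values were seen, and the intervals of the higher ones included 1.

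Among the 10 most abundant members the ratios lay between that of C07H6.10, 0.546, and that of ZK265.10, and the intervals of 4 excluded 1. F47G4.9 had a ratio of 0.759 (0.721 to 0.800), and T06C12.16 a ratio of 0.862 (0.798 to 0.930). ZK265.10 had the opposite direction, with 1.20 (1.13 to 1.28). The log2 ratios of F47G4.9 and T06C12.16 were above 0, at 0.031 and 0.21, when scaled by the median ratio of all listed transcripts. Scaled to the microRNA total, ZK265.10 had a ratio of 1.05 (0.982 to 1.11), an interval that includes 1. The intervals of the other 6 among the 10 most abundant, C46C2.8, R166.7, C14C10.8, F01D5.12, Y75B12B.12 and Y53F4B.47, all included 1 by RPM. With the median ratio of all listed transcripts as the scale, these 6 intervals all exceeded 1, the lowest being F01D5.12 (1.002 to 1.35). With the microRNA total, 1 was above the intervals of R166.7 (0.704 to 0.894), C14C10.8 (0.656 to 0.880) and F01D5.12 (0.648 to 0.876). It remained inside those of C46C2.8, Y75B12B.12 and Y53F4B.47. The quotient of F47G4.9 and ZK265.10, which does not depend on the library total, thus differed between the libraries, and F47G4.9 made up 18.7% of snoRNA counts in the snpc-4 library against 22.4% in the control library.

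The summed counts of X chromosome snoRNAs were lower in the snpc-4 library, mostly through 3 members, a group described after the values were seen. Its 20 members summed to 292 counts in the snpc-4 library and 539 in the control library, a ratio of 0.530 (0.458 to 0.612). Without M163.14 the counts were 163 in the snpc-4 library and 238 in the control library, a ratio of 0.670 (0.545 to 0.821). Of the 6 above the minimum 5 were lower and 1 higher, with a median log2 ratio of -0.88, and 3 of the 7 members at least 2-fold lower are among them: M163.14, T21H8.11 and Y73B3A.30. Without these 3, left out because of their values, the other 17 members summed to 134 counts in the snpc-4 library and 140 in the control library, a ratio of 0.936 (0.733 to 1.19). T21F2.3 had 9 counts in the snpc-4 library and 13 in the control library, C33E10.11 had 28 and 32 in the same order, and C02C6.13, the higher one, had 52 and 49. The intervals of these 3 included 1. None but C02C6.13, inside lron-3, lies inside a protein-coding gene. The 78 snoRNAs above the minimum on other chromosomes had a median of -0.12. For tRNAs and microRNAs of the X chromosome above the minimum, 171 in all, the median was -0.032, and a 2-fold difference was reached by 1 downward and 1 upward.

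The autosomes differed less, with medians between -0.31 and -0.049. Chromosome III had the lowest of these, -0.31 over 10 members above the minimum, and a ratio of summed counts of 0.722 (0.664 to 0.784). C07H6.10, its most abundant member, gave 380 of the chromosome's 997 counts in the snpc-4 library and 680 of 1351 in the control library. Chromosome IV had a ratio of 1.02 (0.954 to 1.08) and chromosome I, which holds F47G4.9 and ZK265.10, 0.929 (0.897 to 0.963). Chromosome I gave 43.0% of the snoRNA counts in the snpc-4 library and 42.1% in the control library.

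**Figure D5:**
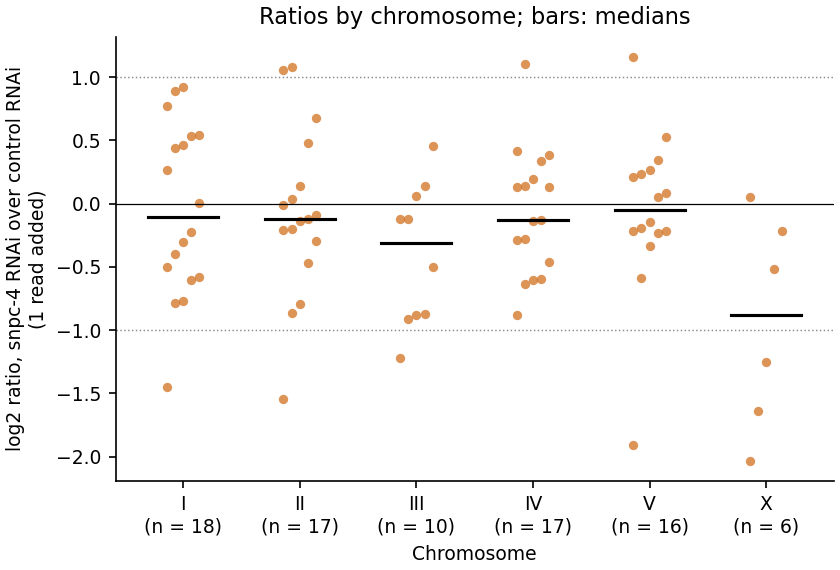
log2 ratio, snpc-4 RNAi over control RNAi with 1 read added (vertical axis), of each snoRNA with a mean of at least 10 counts, by chromosome (horizontal axis), with bars for medians and dotted lines at a 2-fold difference. The 6 snoRNAs of chromosome X have a median of -0.88, against -0.12 for the 78 of the other chromosomes, and their values overlap with those of every other chromosome.

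snoRNAs inside and outside protein-coding genes were set side by side. The 124 members inside such genes had a ratio of summed counts of 0.891 (0.855 to 0.929), and the 80 others had 0.919 (0.893 to 0.945). The median log2 ratio was -0.13 over the 49 inside that are above the minimum, and -0.20 over the 35 others above it. The sums and the medians thus order the groups in opposite ways, and the difference was not tested. The 80 others held 67.9% of the snoRNA counts in the snpc-4 library and 67.3% in the control library, mostly through the 4 leading members. Genes of ribosomal proteins, a group picked by gene symbol after the values were seen, contained 23 listed snoRNAs, 20 of them with reads. These summed to 431 counts in the snpc-4 library and 429 in the control library, a ratio of 0.982 (0.858 to 1.13). C16A3.11, inside rps-13, led them with 205 counts in the snpc-4 library and 218 in the control library. Y24D9A.9, inside rpl-7A, had 54 counts in the snpc-4 library and 58 in the control library. Their log2 ratios lay between -0.30 and 0.13 for the 5 above the minimum, all within the quartiles of the 84 members.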

How the data were processed

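Of 14 samples in the series, the 2 small RNA libraries were used; the other 12, from chromatin immunoprecipitation, were not analysed here. Per the file headers, the authors deposited read counts and RPM values, 1 of each per transcript. Dividing count by RPM gave a single library total for each file, in the deposited values; which reads those totals include is unknown. BWA is named in the submitters' processing notes. Its version and the build, annotation, strand setting and handling of reads with several matches were not given in the sources used here, so single counts of near-identical snoRNAs are uncertain.

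Groups follow the labels, and the labels differ on whether feeding began in L1 or L2 larvae. Counts were compared as ratios scaled by the library totals, with exact conditional binomial intervals, and counts have exact Poisson intervals, all at 95%. Gene names, lengths, chromosomes and containment came from the RefSeq table of WBcel235, and no coordinates are printed since the build of the counts is unknown. No snoRNA sequence was used here. The snoRNAs, the groups and the lists were chosen with earlier results of these data known. Named are the 10 members with the highest mean, those with the 6 lowest and 6 highest log2 ratios at a mean of at least 20 counts, and members with at least 10 counts in 1 library only, of which there were 0. Other scalings, minimum means, pseudocounts, numbers of leading members and detection limits were tried as alternatives. The log2 ratio and the ratio interval were tested on simulated counts that hold counting error alone. The other steps were not. Scripts ran under Python 3.11.15 with SciPy 1.17.1, NumPy 2.4.6, pandas 2.3.3 and, for plots, matplotlib 3.10.9.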

Additional observations from a re-analysis of the deposited data

How the results depend on the processing

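No paired analysis was possible because each group has 1 library. Against RPM, each log2 ratio moves by -0.14 when scaled to the listed counts, 0.43 by the median ratio of listed transcripts, 0.014 by that ratio without piRNAs, -0.20 to the microRNA total and 0.14 to the snoRNA total. The log2 ratio of the snoRNA total, reported as -0.14, was -0.27, 0.29, -0.12 and -0.34 under the first 4 of these, -0.069 without the most abundant member and -0.099 without the 10 most abundant. The median log2 ratio, reported as -0.13, was -0.27, 0.29, -0.12, -0.33 and 0.0030 under the 5 scalings. The 7 lower and 4 higher members became 11 and 1, 5 and 8, 7 and 4, 12 and 0, and 7 and 6 under these scalings in that order, 22 and 18 of 187 with a minimum mean of 1 count, 1 and 0 of 39 with a minimum of 50, and 7 and 0 with 5 reads added. Leading members held, in the snpc-4 and control libraries, 53.9% and 53.9% (5 members), 78.8% and 79.7% (20 members), and 60.1% and 59.8% (10 members, after leaving out the most abundant). The 21 named snoRNAs have 126 alternative values, from the first 4 scalings and from 0.5 or 5 reads added. With other reads added, or by the median ratio without piRNAs, none left the counting interval, so this tally is no measure of stability. Of the 126 values, 105 stayed within the counting interval and 19 left it. The other 2, of snoRNAs whose reported intervals exclude 1, changed sign by the median ratio: F47G4.9 (0.031) and T06C12.16 (0.21). The interval of the F47G4.9 ratio there, 0.970 to 1.08, includes 1. Among the 105 and 19 are sign changes of snoRNAs whose reported intervals include 1. R166.7, C14C10.8, F01D5.12 and Y53F4B.47 changed sign by the median ratio. C46C2.8 and Y75B12B.12 did so by the listed counts and by the microRNA total. Chosen after seeing the data, the second listing run alone gave -0.13 for both the total and the median, and the X chromosome without M163.14 gave -0.58, and without its 3 members at least 2-fold lower -0.095, in place of -0.92, which was -0.49 by the median ratio. The cause of these changes was not tested beyond the shifts themselves. Depth limits the 120 members below the minimum, for which no ratio is given.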

Other observations

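Neighbouring snoRNAs were compared after the data were seen. Within 5000 bases of each other lie 31 pairs of neighbouring snoRNA genes, 26 of them inside 1 shared protein-coding gene; in 13 of these both members had reads. The summed counts were at least 2-fold apart in 8 of the 13 and less than that in 5, many of them on few reads. Examples picked for their gap follow. Inside akir-1, a gene for the nuclear protein akirin, E01A2.11 had 144 counts in the snpc-4 library and 243 in the control library, while E01A2.9 had 4 in the snpc-4 library and 8 in the control library. Inside cdc-48.1, which encodes an AAA ATPase that unfolds ubiquitinated proteins, C06A1.8 had 32 counts in the snpc-4 library and 55 in the control library, and C06A1.9 had 5 and 6 in the same order. Inside rpl-27A, Y37E3.22 had 28 counts in the snpc-4 library and 34 in the control library, and Y37E3.21 had 5 and 3. These pairs are of nearly equal length in akir-1 (126 and 127 nt) and rpl-27A (140 and 139 nt), but not in cdc-48.1 (218 and 113 nt). Inside rpl-7A, Y24D9A.9, of 221 nt, had 54 counts in the snpc-4 library and 58 in the control library. Y24D9A.10, of 74 nt in the same gene, had 1 and 0. Pairs with reads for 1 snoRNA only are outside the 13. Inside frm-7, for example, C51F7.3 had 232 and 196 counts and C51F7.4 had 0 in both libraries.

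The gene nol-56, whose product is a core protein of box C/D snoRNA particles, contains 4 listed snoRNAs, all with reads. K07C5.11 had 14 counts in the snpc-4 library and 16 in the control library, K07C5.18 had 10 and 7 in the same order, K07C5.10 had 6 and 10, and K07C5.12 had 3 and 7. Of these K07C5.11 alone passed the minimum for a ratio.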
